A study of Mus musculus with 6 samples.

Results

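The transcripts of 10 cytosolic sulfotransferase genes were compared between the livers of 3 WT and 3 β-cateninΔ(ex3)/+ mice. The genes were *Sult1a1*, *Sult1b1*, *Sult1c2*, *Sult1d1*, *Sult1e1*, *Sult2a1*, *Sult2a8*, *Sult3a1*, *Sult3a2* and *Sult5a1*, chosen by name from the 31950 genes of the expression table. Each name matched 1 gene. The table holds 10 further *Sult* genes, which are used here for comparison. All mice were C57BL/6, the labelled age was 8 weeks, and each mouse gave 1 library of liver RNA. The β-cateninΔ(ex3)/+ mice (mutant hereafter) have lost exon 3 from 1 copy of *Ctnnb1*, the gene for β-catenin, which keeps the protein from being degraded. In the study's methods, exon 3 is deleted in hepatocytes of adult mice by a tamoxifen-inducible Cre under the albumin promoter for the metabolic work. Whether the sequenced livers came from the same driver, and whether the WT mice received tamoxifen, is not given in the sources used here.

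Cytosolic sulfotransferases move a sulfate group from PAPS (phosphoadenosine phosphosulfate) onto phenols, steroids, bile acids, amines and drugs. The product is usually more soluble in water and leaves the cell more easily, so the liver uses these enzymes to clear hormones and foreign compounds. SULT1 enzymes act mainly on phenols, SULT2 enzymes on hydroxysteroids and bile acids, and SULT3 enzymes on amines. In adult mice *Sult2a1* and *Sult3a1* are both known to be expressed more in female than in male liver.

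*Sult1a1*, *Sult2a8* and *Sult1d1* were among the 4 most abundant members in both groups, joined by *Sult2a1* in WT and by *Sult3a1* in the mutant livers. *Sult3a1* and *Sult3a2* were listed at 0 in all 3 WT livers and reached 142 and 11.6 FPKM in the mutant livers. *Sult5a1* and *Sult1b1* were also higher in the mutant livers, whereas *Sult2a1* went from 273 FPKM to 0.147 FPKM and *Sult1c2* from 11.7 to 0.973 FPKM. *Sult1a1*, the most abundant member in the mutant livers, had means that differed 1.08-fold. FPKM are fragments relative to the length of the transcript and to all mapped fragments of the library, so they are comparable between genes of unequal length.

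A gene was called when it differed by at least 2-fold on the log2(FPKM + 1) scale with a limma adjusted p-value under 0.05. Of the 10 members, 9 reached the mean of 0.5 FPKM needed for the test, 4 were called higher and 2 lower. Among all 13243 genes tested, 12.7% were called, 8.17% higher and 4.52% lower. *Sult2a1*, *Sult3a1*, *Sult3a2* and *Sult5a1* passed the filter only through the group in which they were high, so the number of calls is a description. At any fold change 8 of the 9 members tested had an adjusted p under 0.05, against 57.0% of all genes tested. This became 7 with a replicate block, with eBayes without a trend and after quantile normalization, where *Sult1a1* missed the threshold (adjusted p 0.0527, 0.0775 and 0.0647), and 9 without mutant replicate 3. With 3 livers against 3 the smallest exact permutation p for a single gene is 0.1, and every member except *Sult2a8* had this p (two-sided). The livers of both groups did not overlap for 8 of the 9 members tested, against 66.0% of all genes tested. Over all genes tested the median log2 fold change was 0.14, and it went to 0.01 after median-ratio scaling between livers and to -0.02 after quantile normalization. The split of all called genes moved with it, from 1082 higher and 598 lower to 851 and 751 under median-ratio scaling and 797 and 812 under quantile normalization.

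**Figure D1:**
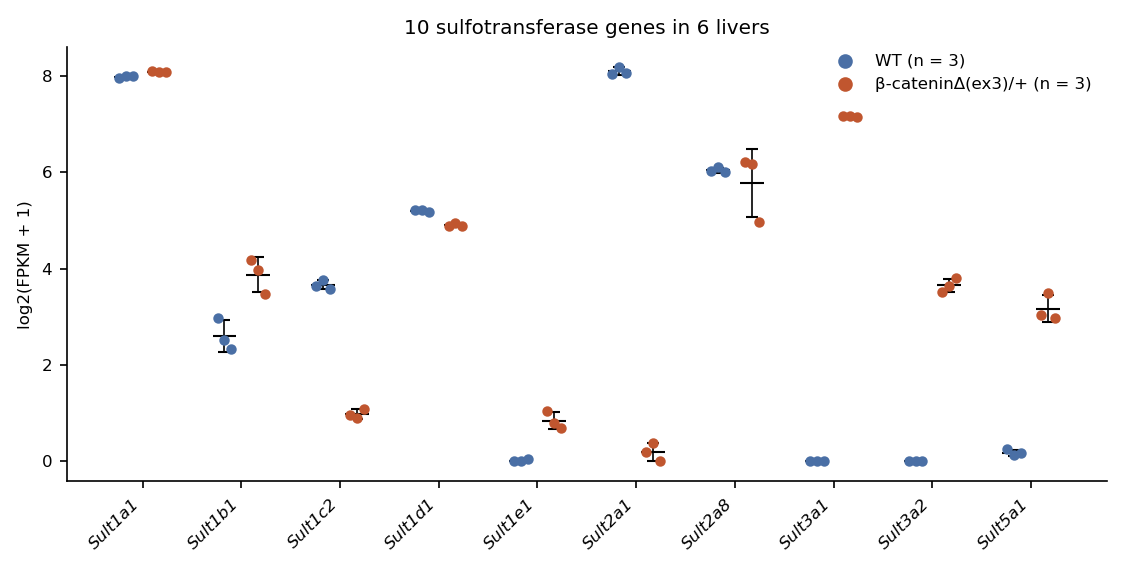
Level of each sulfotransferase gene in each liver, as log2(FPKM + 1) on the vertical axis; points are livers, bars are the mean ± SD of 3 livers, blue is WT and orange is β-cateninΔ(ex3)/+. *Sult2a1* and *Sult1c2* sit high in WT only, *Sult3a1*, *Sult3a2* and *Sult5a1* high in the mutant only, and 1 mutant liver lies apart for *Sult2a8*.

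The regions at the annotated starts of the members were read from RefSeq (build GRCm38). These promoter windows run from 250 bases before to 50 bases after the annotated start. Windows were found for 9 of the 10 members. Those of *Sult3a1* (chr10:33857472-33857771, plus strand), *Sult3a2* (chr10:33782066-33782365, minus strand), *Sult5a1* (chr8:123158231-123158530, minus strand), *Sult1b1* (chr5:87538146-87538445, minus strand) and *Sult1c2* (chr17:53845909-53846208, minus strand) are printed because these genes were called and have a window. That of *Sult1a1* (chr7:126676369-126676668, minus strand) is printed as an abundant member that was not called. Capitals mark the letters CTTTGAA or CTTTGAT on either strand, which are bound by TCF/LEF factors, the DNA-binding partners of β-catenin.
Sult3a1: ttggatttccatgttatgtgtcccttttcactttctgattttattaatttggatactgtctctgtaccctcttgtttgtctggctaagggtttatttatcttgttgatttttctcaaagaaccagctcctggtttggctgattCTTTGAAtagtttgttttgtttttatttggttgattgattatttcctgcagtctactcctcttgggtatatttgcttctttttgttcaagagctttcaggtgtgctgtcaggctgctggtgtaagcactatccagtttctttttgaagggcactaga
Sult3a2: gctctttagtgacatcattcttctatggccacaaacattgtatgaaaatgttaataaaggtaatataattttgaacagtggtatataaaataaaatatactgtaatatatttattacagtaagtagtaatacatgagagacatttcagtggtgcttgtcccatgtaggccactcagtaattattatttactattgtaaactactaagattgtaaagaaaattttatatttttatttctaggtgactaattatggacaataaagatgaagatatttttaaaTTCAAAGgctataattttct
Sult5a1: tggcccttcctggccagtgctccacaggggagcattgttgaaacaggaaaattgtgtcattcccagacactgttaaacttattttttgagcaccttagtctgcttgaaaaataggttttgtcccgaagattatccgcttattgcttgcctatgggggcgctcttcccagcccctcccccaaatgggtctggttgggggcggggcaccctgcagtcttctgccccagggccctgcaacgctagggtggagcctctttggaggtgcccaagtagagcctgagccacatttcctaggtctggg
Sult1b1: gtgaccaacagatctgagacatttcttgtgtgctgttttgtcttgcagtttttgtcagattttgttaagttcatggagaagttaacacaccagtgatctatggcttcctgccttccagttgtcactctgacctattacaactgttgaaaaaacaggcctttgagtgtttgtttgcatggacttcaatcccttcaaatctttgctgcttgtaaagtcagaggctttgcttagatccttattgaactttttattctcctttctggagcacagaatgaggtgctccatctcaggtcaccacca
Sult1c2: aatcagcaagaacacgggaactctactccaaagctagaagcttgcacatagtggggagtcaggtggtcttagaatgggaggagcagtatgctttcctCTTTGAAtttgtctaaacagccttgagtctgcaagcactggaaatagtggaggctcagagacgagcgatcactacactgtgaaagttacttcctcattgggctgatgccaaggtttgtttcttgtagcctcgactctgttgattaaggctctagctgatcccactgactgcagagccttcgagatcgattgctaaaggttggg
Sult1a1: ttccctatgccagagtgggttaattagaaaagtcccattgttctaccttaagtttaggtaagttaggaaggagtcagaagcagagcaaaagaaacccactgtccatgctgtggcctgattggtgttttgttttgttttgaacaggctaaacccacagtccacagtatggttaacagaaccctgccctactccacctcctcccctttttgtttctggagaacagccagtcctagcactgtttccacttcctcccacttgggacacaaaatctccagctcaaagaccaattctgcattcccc

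These letters occurred in 4 of the 9 windows, namely those of *Sult3a1*, *Sult3a2*, *Sult1c2* and *Sult2a8*. Over 32851 RefSeq windows of the same length, 8.65% held them. Those windows were not matched for base content, so the 2 shares are not a test of enrichment. G and C made up 37.3%, 25.7%, 47.7% and 36.0% of the 4 member windows in this order, and 37.0% to 54.7% of the remaining member windows. The match began 107 bases before the start site in *Sult3a1*, 153 before it in *Sult1c2* and 203 before it in *Sult2a8*, and 30 bases after it in *Sult3a2*. The 4 genes with a match included 2 that were higher, 1 that was lower and 1 that was not called. The RefSeq start of *Sult3a2* lay 4589 bases inside the gene span of the expression table, and that of *Sult1c2* 381 bases inside. The windows of these genes thus lay within their gene spans and not in front of them. The STAT5 letters TTCNNNGAA were found in 1 window (*Sult3a1*; 8.30% of all windows), and AGGTCA, the core of many nuclear receptor sites, in 2 (*Sult1b1* and *Sult1e1*; 16.3% of all windows), on either strand. The STAT5 match of *Sult3a1* overlaps its TCF/LEF letters. A match of letters is a description and not a binding site.

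*Sult3a1* (ENSMUSG00000069668, chromosome 10 from 33857721 to 33879532) encodes an amine sulfotransferase. It was listed at 0 in WT replicates 1, 2 and 3, and had 142, 143 and 141 FPKM in mutant replicates 1, 2 and 3. Every mutant liver thus lay far above every WT liver, with a coefficient of variation of 0.845% among the mutant livers. The log2 fold change of FPKM + 1 was 7.16 (standard error (SE) 0.038, limma adjusted p = 3.93e-09), and depends on the added 1 because WT is at 0. At a depth of about 24.6 M mapped fragments, 1 fragment of this gene is worth about 0.0352 FPKM in WT replicate 1.

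*Sult3a2* (ENSMUSG00000090298, chromosome 10 from 33766424 to 33786704) is the nearest relative of *Sult3a1*, with 90.9% identity over 879 aligned coding bases. It was listed at 0 in each WT liver and had 10.5, 11.4 and 13.0 FPKM in mutant replicates 1 to 3. The groups did not overlap. The log2 fold change of FPKM + 1 was 3.65 (SE 0.082, limma adjusted p = 5.98e-07). *Sult3a1* exceeded *Sult3a2* by 13.6, 12.6 and 10.9 times in the 3 mutant livers. No stretch of 150 bases, the length of a read, was common to annotated transcripts of both genes.

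*Sult5a1* (ENSMUSG00000000739, chromosome 8 from 123140192 to 123158315) encodes a sulfotransferase whose natural substrate is not well known. It had 0.187, 0.0872 and 0.121 FPKM in WT and 7.27, 10.2 and 6.90 FPKM in mutant livers. Each mutant liver was thus many times above the highest WT liver. The means differed 61.7-fold (0.132 ± 0.0508 and 8.12 ± 1.81 FPKM, SD, n = 3 each), and the log2 fold change of FPKM + 1 was 2.99 (SE 0.14, limma adjusted p = 1.33e-05). The WT values came from about 8.16 to 17.5 fragments a liver, so the 61.7-fold is imprecise.

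*Sult1b1* (ENSMUSG00000029269, chromosome 5 from 87513339 to 87538195) encodes an enzyme that sulfates thyroid hormones and small phenols. It had 6.82, 4.73 and 4.01 FPKM in WT and 17.1, 14.7 and 10.1 FPKM in mutant livers. Livers of both groups were widely spread, with coefficients of variation of 28.1% and 25.6%, but did not overlap. Its mean was 2.69-fold higher in the mutant livers, with a log2 fold change of 1.27 (SE 0.24, limma adjusted p = 0.00486). It was the only call that did not reach an absolute log2 fold change of 1.5.

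*Sult2a1* (ENSMUSG00000078798, chromosome 7 from 13796246 to 13837409) encodes a hydroxysteroid sulfotransferase that also takes bile acids. It was the most abundant member in WT, with 263, 292 and 265 FPKM, and had 0.150, 0.292 and 0 FPKM in mutant livers. The mutant values correspond to about 2.91, 5.03 and 0 fragments. The log2 fold change of FPKM + 1 was -7.91 (SE 0.10, limma adjusted p = 6.81e-08).

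The other genes of the *Sult2a* cluster on chromosome 7 are close copies, and *Sult2a1* shares 81.6% to 94.9% of its aligned coding bases with *Sult2a2* to *Sult2a7*. Windows of 150 bases were shared with *Sult2a2* for 6.31% of the longest *Sult2a1* transcript, so how reads were divided between these copies is uncertain. *Sult2a2* had 314, 321 and 311 FPKM in WT and 0.305, 0.818 and 0.978 FPKM in mutant livers. *Sult2a5* had 78.6, 79.2 and 76.9 FPKM in WT and 0.333, 0.279 and 0.140 FPKM in mutant livers. *Sult2a6* had 27.5, 25.7 and 25.8 FPKM in WT and was listed at 0 in each mutant liver. All 4 tested genes among the further *Sult* genes of the table (*Sult2a2*, *Sult2a3*, *Sult2a5* and *Sult2a6*) were called lower. For all genes tested this share was 4.52%. *Sult2a3*, *Sult2a5* and *Sult2a6* passed the filter only through WT, so this count is a description. The remaining further *Sult* genes were too low for the test, among them *Sult2a7* (means of 0.0319 FPKM in WT and 0.191 FPKM in mutant livers). Summed over *Sult2a1* to *Sult2a7*, the level was 686, 722 and 681 FPKM in WT and 0.911, 1.84 and 1.17 FPKM in mutant livers.

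*Sult2a8* (ENSMUSG00000030378, chromosome 7 from 14410686 to 14446769) encodes a bile acid sulfotransferase of mouse liver and lies in the same cluster. It is the most distant copy, with 69.4% identity to *Sult2a1* over 842 aligned coding bases and no shared window of 150 bases. It had 64.0, 67.8 and 63.4 FPKM in WT and 72.9, 71.7 and 30.2 FPKM in mutant livers. The third mutant liver lay under every WT liver and the other two above every WT liver. The difference was not called (log2 fold change -0.26, 95% interval from -1.09 to 0.57, SE 0.34, limma adjusted p = 0.544; exact permutation p = 1, two-sided). Without the third mutant liver the log2 fold change was 0.15 (SE 0.047, limma adjusted p = 0.0473). Of 4625 genes at 5 FPKM or more whose values in the other mutant livers lay within 1.3-fold of each other, 29 were under 0.5 times both in the third, and each other liver had 25 to 37 such genes, so this liver did not stand apart in that count.

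**Figure D2:**
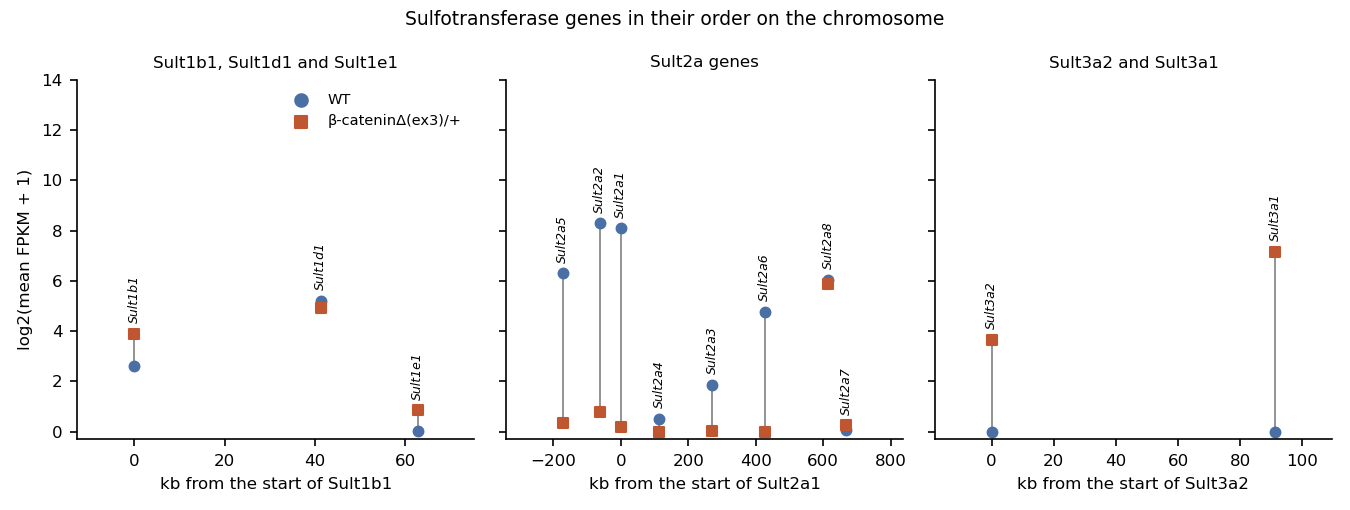
Mean level of sulfotransferase genes in 3 clusters, as log2(mean FPKM + 1), against the distance in kb from the gene named on each horizontal axis; circles are WT, squares β-cateninΔ(ex3)/+, n = 3 livers each. In the *Sult2a* cluster *Sult2a8* has means of 65.1 and 58.3 FPKM while *Sult2a1*, *Sult2a2*, *Sult2a5* and *Sult2a6* are near 0 in the mutant, and in the other clusters *Sult1b1*, *Sult3a2* and *Sult3a1* are higher in the mutant.

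*Sult1c2* (ENSMUSG00000023122, chromosome 17 from 53829637 to 53846339) belongs to the phenol-sulfating SULT1 family. It had 11.5, 12.7 and 11.0 FPKM in WT and 0.944, 0.855 and 1.12 FPKM in mutant livers. All mutant livers lay below all WT livers, and the WT mean was 12.0-fold higher. The log2 fold change of FPKM + 1 was -2.69 (SE 0.079, limma adjusted p = 1.77e-06).

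*Sult1a1* (ENSMUSG00000030711, chromosome 7 from 126672865 to 126676432) encodes the main phenol sulfotransferase of the liver. It had 248, 254 and 254 FPKM in WT and 274, 269 and 271 FPKM in mutant livers, the narrowest spread of any member found in both groups. The mutant mean was 1.08-fold higher (log2 fold change 0.11, SE 0.026, limma adjusted p = 0.0135, not called), but the sign turned to -0.09 under median-ratio scaling and -0.08 under quantile normalization, so no direction is given. *Sgf29* overlaps *Sult1a1* on the opposite strand. It had 6.72 ± 0.712 FPKM in WT and 8.07 ± 0.196 FPKM in mutant livers (SD, n = 3), and the strand setting of the counting is not given in the sources used here.

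*Sult1d1* (ENSMUSG00000029273, chromosome 5 from 87554645 to 87569027) encodes an enzyme that sulfates dopamine and related amines. It had 36.0, 36.5 and 35.2 FPKM in WT and 28.6, 29.8 and 28.7 FPKM in mutant livers. The mutant livers were all lower, at 81.0% of the WT mean, but short of the 2-fold needed for a call (log2 fold change -0.30, SE 0.037, limma adjusted p = 0.000887). Its ratio to *Sult1b1*, which lies 16.4 kb away, went from 7.25 ± 1.79 in WT to 2.19 ± 0.602 in mutant livers (SD, n = 3).

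*Sult1e1* (ENSMUSG00000029272, chromosome 5 from 87575969 to 87591594) encodes estrogen sulfotransferase, which inactivates estrogens. It was listed at 0 in WT replicates 1 and 2 and had 0.0307 FPKM in WT replicate 3, about 0.935 fragments. The mutant livers had 1.05, 0.745 and 0.613 FPKM, about 24.9, 15.6 and 14.8 fragments. The groups did not overlap, yet the mean over all livers, 0.406 FPKM, was too low for the test. Without the filter the log2 fold change of FPKM + 1 was 0.83 (SE 0.094, limma adjusted p = 0.00143), under the 2-fold threshold on this scale, which 6.24% of the genes of that fit passed.

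**Figure D3:**
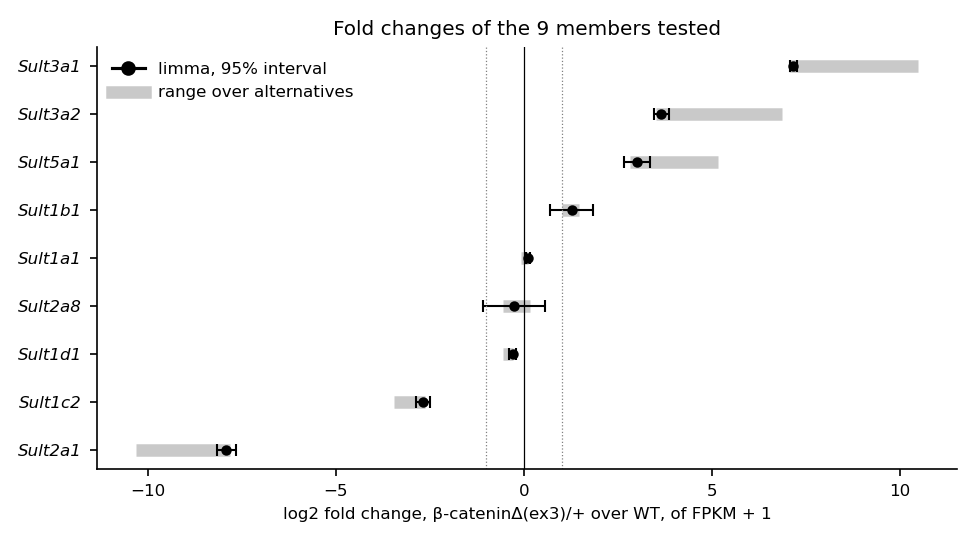
Log2 fold change of FPKM + 1, β-cateninΔ(ex3)/+ over WT, for the 9 members tested; points and thin bars are the limma estimate with its 95% interval, grey bars the range over 13 alternatives, and dotted lines 2-fold. The 6 called genes stay beyond 2-fold in every alternative shown, while the range of *Sult1a1* and *Sult2a8* crosses 0.

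In WT the order of the levels was *Sult2a1* (273 FPKM), *Sult1a1* (252), *Sult2a8* (65.1), *Sult1d1* (35.9), *Sult1c2* (11.7), *Sult1b1* (5.19) and *Sult5a1* (0.132), followed by *Sult1e1*, *Sult3a1* and *Sult3a2* at or near 0. No neighbours in this order overlapped in their livers except these last 3. In the mutant livers the order was *Sult1a1* (271 FPKM), *Sult3a1* (142), *Sult2a8* (58.3), *Sult1d1* (29.0), *Sult1b1* (13.9), *Sult3a2* (11.6), *Sult5a1* (8.12), *Sult1c2* (0.973), *Sult1e1* (0.802) and *Sult2a1* (0.147). Here *Sult1b1* overlapped *Sult3a2*, and *Sult1c2* overlapped *Sult1e1*.

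Added up, the 10 members had 629, 668 and 633 FPKM in WT and 555, 552 and 503 FPKM in mutant livers. The mutant sum was lower in each liver, with a mean of 83.4% of the WT mean. The difference of the means, -107 FPKM, became -185 under median-ratio scaling and -196 when quantiles were normalized. *Sult2a1* held 42.5% ± 1.09 of this sum in WT and 0.0266% ± 0.0264 in mutant livers, whereas *Sult3a1* held 0% and 26.5% ± 1.29 (SD, n = 3). The share of *Sult1a1* was 39.2% ± 1.07 in WT and 50.7% ± 2.84 in mutant livers. Over all 20 *Sult* genes of the table the sum was 1066 ± 27.1 FPKM in WT and 538 ± 29.4 FPKM in mutant livers, 50.4% of WT, since the *Sult2a* copies outside the 10 members had a large part in WT. Shares are parts of a whole, so a member's share can move while its level does not.

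**Figure D4:**
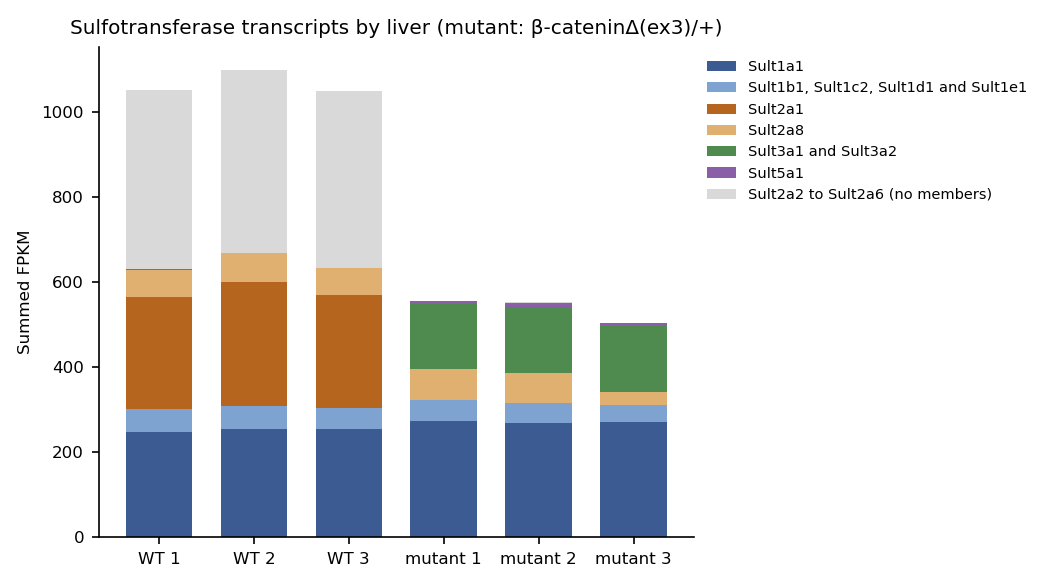
Summed FPKM of sulfotransferase genes in each liver, stacked by gene or gene group, with the *Sult2a* copies that are no members in grey. WT livers sum to about 1066 FPKM and mutant livers to about 538 FPKM, and the brown and grey *Sult2a* parts of WT are missing in the mutant, where the green *Sult3a* part appears.

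Of 6 tested genes that make, carry or recycle PAPS, 1 was called higher and 0 lower (12.7% of all genes tested were called), with a median log2 fold change of 0.15 beside 0.14 for all genes. *Papss2*, the main PAPS synthase of the liver, had 15.0, 34.0 and 27.4 FPKM in WT and 52.5, 50.0 and 45.1 FPKM in mutant livers. All mutant livers were above all WT livers, but the log2 fold change of 0.99 (SE 0.28, limma adjusted p = 0.0252) was just short of 2-fold. *Papss1*, the other synthase, had 3.77 to 4.24 FPKM in WT and 5.54 to 5.72 FPKM in mutant livers (log2 fold change 0.40, not called). *Bpnt1*, which breaks down the spent cofactor in the cytosol, had 7.94, 8.50 and 8.04 FPKM in WT and 22.1, 22.8 and 16.4 FPKM in mutant livers (log2 fold change 1.21, SE 0.13, limma adjusted p = 0.000384). Its log2 fold change was 0.93 under quantile normalization, where it was not called. *Slc35b2*, a carrier of PAPS into the Golgi, had 14.9 ± 0.328 and 11.8 ± 0.796 FPKM (SD, n = 3; log2 fold change -0.32, not called).

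Sulfate for PAPS comes from the blood and from cysteine. Of 9 sulfate supply genes tested, 1 was called higher, 0 lower and 8 not, while 12.7% of all genes tested were called. The median log2 fold change of this list was 0.57, beside 0.14 for all genes. *Cdo1*, which starts the oxidation of cysteine, had 232, 252 and 232 FPKM in WT and 493, 489 and 497 FPKM in mutant livers (log2 fold change 1.04, SE 0.039, limma adjusted p = 4.94e-06). The call was lost after median-ratio scaling (0.85) and quantile normalization (0.87). *Csad*, which turns a product of *Cdo1* toward taurine, had 51.4, 31.6 and 32.3 FPKM in WT and 22.01, 16.9 and 21.8 FPKM in mutant livers (log2 fold change -0.87, SE 0.21, limma adjusted p = 0.0140, not called), but was called lower after both scalings (-1.05 and -1.15). With either scaling 0 genes of this list were thus called higher and 1 lower. *Suox*, which oxidizes sulfite to sulfate, had 31.6, 33.8 and 31.3 FPKM in WT and 52.6, 51.5 and 51.1 FPKM in mutant livers (log2 fold change 0.67, not called). *Slc26a1*, a sulfate carrier of the hepatocyte membrane, had 23.3, 25.9 and 14.4 FPKM in WT and 26.8, 30.1 and 44.8 FPKM in mutant livers (log2 fold change 0.66, limma adjusted p = 0.0834), with 1 outlying liver in each group.

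**Figure D5:**
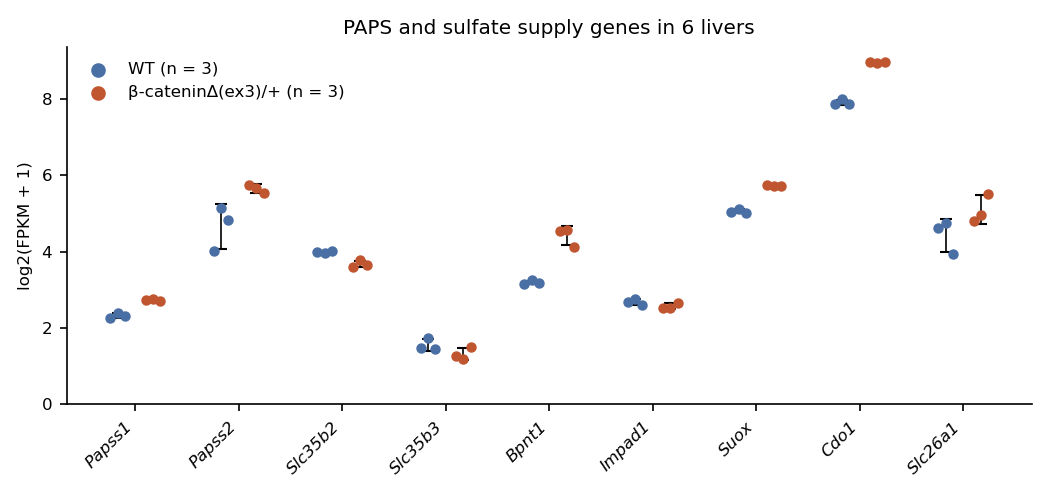
Level of genes of PAPS and sulfate supply in each liver, as log2(FPKM + 1); points are livers, bars the mean ± SD of 3 livers, blue is WT and orange β-cateninΔ(ex3)/+. *Bpnt1* and *Cdo1* were called higher in the mutant, and *Papss2* and *Slc26a1* spread widely within a group.

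Of 18 transcription factors and receptors tested that are known to act on sulfotransferase genes, 2 were called higher, 1 lower and 15 not. The share called among all genes tested was 12.7%. The median log2 fold change of this list was 0.30, beside 0.14 for all genes. *Bcl6*, a repressor that is higher in male liver, had 0.242, 0.324 and 0.283 FPKM in WT and 6.73, 6.19 and 6.41 FPKM in mutant livers (log2 fold change 2.54, SE 0.059, limma adjusted p = 6.66e-07). *Cux2*, a factor of female liver, had 3.74, 3.84 and 3.65 FPKM in WT and 0.126, 0.106 and 0.0840 FPKM in mutant livers (log2 fold change -2.10, SE 0.054, limma adjusted p = 1.05e-06). *Hnf4a*, a factor of hepatocyte identity, had 57.6 ± 0.953 and 125 ± 1.07 FPKM (SD, n = 3; log2 fold change 1.10), and was not called under either scaling (0.91 and 0.86). *Nr1i3*, the drug sensor CAR, had 53.2 ± 2.14 and 32.2 ± 0.973 FPKM (SD, n = 3; log2 fold change -0.71, not called). *Nr3c1* was 0.109 FPKM in WT replicate 3 against 6.91 and 6.88 FPKM in the other WT livers, and *Esr1* 0.269 FPKM in mutant replicate 2 against 1.07 and 1.59 FPKM.

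Some groups of genes outside the sulfotransferases differed between the groups of livers together with these results. *Xist* (X-linked, from the inactive X chromosome) had 20.3, 22.2 and 21.1 FPKM in WT and 0.0146, 0 and 0.0128 FPKM in mutant livers, and the Y-linked *Eif2s3y* had 0.0169, 0 and 0 FPKM in WT and 9.94, 9.20 and 9.37 FPKM in mutant livers. All 16 tested genes of a list known to be higher in male liver were called higher in the mutant, and of 16 tested genes known to be higher in female liver 10 were called lower, 2 higher and 4 not. Of 13 tested genes of the young liver 11 were called lower, among them *H19* (2353 ± 28.6 and 0.0260 ± 0.0196 FPKM) and *Afp* (608 ± 5.94 and 2.55 ± 0.226 FPKM, SD, n = 3). Over all genes tested 8.17% were called higher and 4.52% lower. In each of these lists some genes passed the filter only through the group in which they were high, such as *Mup20*, *Hao2* and *H19*. The counts are therefore descriptions. By *Xist* and *Eif2s3y*, every WT liver had the female pattern and every mutant liver the male pattern. Among members known to be higher in female liver, *Sult2a1* was high and *Sult3a1* was listed at 0 in the WT livers. The sex of the mice is not given in the sources used here, and the labelled age is the same in both groups. Genotype, sex and the state marked by *Afp* and *H19* therefore cannot be told apart for any sulfotransferase in these 6 livers.

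*Ctnnb1* itself had 25.9, 28.0 and 27.3 FPKM in WT and 25.4, 25.2 and 25.04 FPKM in mutant livers, per gene, so the loss of exon 3 is not visible. *Glul*, a known β-catenin target, had 103, 105 and 102 FPKM in WT and 626, 633 and 619 FPKM in mutant livers. Summed hepatocyte markers ranged from 108451 to 111835 FPKM in WT and from 61154 to 62747 FPKM in mutant livers, with 1 of 12 called higher, 3 lower and none of them at 0 in all livers. Kupffer cell markers summed to 200 to 206 FPKM in WT and 457 to 467 in mutant livers (3 of 6 higher, 1 lower), stellate cell markers to 62.9 to 64.2 and 14.1 to 15.1 FPKM (4 of 6 lower), and erythroid markers to 2415 to 2658 and 1239 to 1277 FPKM (5 of 7 lower). Endothelial markers summed to 68.6 to 69.9 and 49.3 to 50.5 FPKM (1 of 6 lower), lymphocyte markers to 16.6 to 18.1 and 7.23 to 8.67 FPKM (2 of 4 tested lower), and cholangiocyte markers to 12.5 to 13.3 and 9.30 to 10.4 FPKM (0 of 4 tested called). The kidney markers *Umod*, *Slc12a1* and *Aqp2* were at 0 in all livers, and *Fabp2* made up nearly all of its list (130 to 136 and 18.8 to 23.6 FPKM). The part of these cell types in the sulfotransferase values was not tested. In bulk liver, fewer cells of a type and less RNA per cell cannot be told apart.

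All called pericentral markers were higher, while periportal markers were called in both directions. Of 18 pericentral genes 10 were called higher and 0 lower, and of 15 periportal genes 6 were called higher and 3 lower. Their median log2 fold changes were 1.38 and 0.56, beside 0.14 for all genes, of which 8.17% were called higher and 4.52% lower.

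Neighbouring genes were counted to see whether levels near the members moved too. Within 100 kb of a member lay 53 genes that are no *Sult* gene, 25 of which were tested, with 4 called higher, 1 lower and 20 not. Beside this stand 12.7% of all genes tested, 8.17% called higher and 4.52% lower. With so few neighbours tested, no shift around the members can be read from this count. *Ugt2b38* near *Sult1b1*, a gene of the list higher in males, had 2.55 ± 1.21 FPKM in WT and 12.1 ± 0.591 FPKM in mutant livers (log2 fold change 1.94). *Rsph4a* near *Sult3a1* had 0.0440 ± 0.0501 and 1.12 ± 0.241 FPKM (1.01). *Rsph4a* passed the filter only through the mutant livers, so the count of called neighbours is a description. *Spata2l* and *Zfp276* near *Sult5a1* had log2 fold changes of 1.43 and 1.09, and *Nupr1* near *Sult1a1* one of -1.32 (SD, n = 3 for each mean, limma adjusted p of 0.000704, 0.000347, 5.62e-05, 8.50e-05 and 0.00355 in this order). *Zup1*, 39.6 kb from *Sult3a1*, had 0.625 ± 0.101 FPKM in WT and 0.640 ± 0.0499 FPKM in mutant livers (SD, n = 3; log2 fold change 0.01, not called). *Gm10327*, between *Sult3a2* and *Sult3a1*, had 0.188 ± 0.129 and 1.08 ± 0.118 FPKM (log2 fold change 0.82, not called). It passed the filter only through the mutant livers. *Gm47940*, 14.6 kb from *Sult3a1*, was listed at 0 in WT, had 0.597 ± 0.542 FPKM in mutant livers and was too low for the test.

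The genes whose levels over the 6 livers were most like those of the top members were found by Euclidean distance in log2(FPKM + 1). Nearest to *Sult2a1* were *Sult2a2* (distance 1.17), *Igf2* (2.80; 829 ± 22.9 FPKM in WT and listed at 0 in mutant livers) and *Sult2a5* (3.12). Nearest to *Sult1a1* were *Psap* (0.265), *Fah* (0.268) and *Clu* (0.296). With 6 livers in 2 groups, such a distance mostly reflects the 2 group means.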

How the data were processed

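RNA of 3 WT and 3 β-cateninΔ(ex3)/+ livers was purified with oligo(dT) and sequenced as stranded paired ends. Per the submitters' processing notes, cutadapt 1.9, HISAT2 2.0.4, StringTie 1.3.4d, DESeq2 and edgeR were used by the authors. The deposited values are FPKM for each gene in each liver. The genome build and annotation are not given in the sources used here, but all 10 members, and 27742 of the 31950 genes of the table, have the start and end of GENCODE M21 (GRCm38). FPKM are not counts, so DESeq2, the test of the study, and edgeR were not run. The 6 columns of the table were assigned to livers by column name (0 unused).

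From the FPKM, log2(FPKM + 1) was fitted by limma 3.58.1 (eBayes with trend, R 4.3.3) over the 6 livers for 13243 genes with a mean of at least 0.5 FPKM, with Benjamini-Hochberg adjustment over all of them. The limma script was tested on simulated data. Members and lists were chosen with earlier results of these data known. All members are named, in further lists those called with the largest changes (up to 4) and those whose values stand beside a result, neighbours within 100 kb that were called (up to 6), and the 3 genes nearest to the top member of each group. *Zup1*, *Gm10327* and *Gm47940* were chosen after their values were seen. A pseudocount of 0.1, no filter, a mean of at least 1 FPKM, quantile normalization, median-ratio scaling, a replicate block, eBayes without a trend, each liver left out and other thresholds were tried.

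Depth was estimated from steps in the low FPKM of 5651 single-exon genes (searched from 8 to 30 M), as 24.5 to 24.6 M fragments in WT and 16.9 to 19.5 M in mutant livers; 27.3% to 35.8% of low values lay within 0.02 fragments of a whole number. Approximate fragments of a member use its longest GENCODE transcript. No counting intervals can be computed from FPKM. Squared differences between replicates were 2.67 to 5.18 times counting noise, so no pair agreed within sampling noise; that they are separate livers rests on the labels. 1 library came from each labelled liver. The limma p-values set the difference of the groups against the spread between these livers, which eBayes moderates with that of the other genes tested. Coding sequences were aligned with Biopython 1.88, and tables and plots were made with matplotlib 3.10.9, numpy 2.4.6 and pandas 2.3.3 under Python 3.11.15.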

Additional observations from a re-analysis of the deposited data

How the results depend on the processing

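The 6 called members (4 higher, 2 lower) were also called without a filter, with a mean of at least 1 FPKM, under both other scalings, with a pseudocount of 0.1, without a trend, with each liver left out and at an unadjusted p under 0.05; 5 were called at an absolute log2 fold change of at least 1.5 and 8 with no fold threshold. The replicate numbers did not pair the livers (correlations of same-numbered deviations 0.027, 0.021 and -0.0054), and with the replicate block 6 members and 1673 of all genes were called. Of 117 values of single members under alternatives, 114 kept their sign and their side of the threshold. *Sult1a1* turned to -0.086 under median-ratio scaling and -0.080 under quantile normalization, which remove the shift of all genes, and *Sult2a8*, which ran from -0.47 to 0.15 with 1 liver left out, to 0.15 without mutant replicate 3. The difference of the summed FPKM, mutant minus WT, was -107 and moved to -185 under median-ratio scaling and -196 under quantile normalization; with 1 liver left out it ran from -116 to -89.9. Genes of the further lists called were 11, against 18 with a pseudocount of 0.1, 7 at an absolute log2 fold change of 1.5 and 48 with no fold threshold; for all genes the numbers were 1680, 2705, 759 and 7551. *Papss2* was called without WT replicate 2 (log2 fold change 1.23) and without WT replicate 3 (1.08). With 3 livers a group and no counts in the table, members near 0 in a group have no usable fold change.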

Other observations

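Sulfatases remove sulfate, and Golgi sulfotransferases add it to glycans and proteins. Of 11 sulfatase genes tested, 1 was called higher and 0 lower (12.7% of all genes tested were called), with a median log2 fold change of 0.27 beside 0.14 for all genes. *Arsa*, the lysosomal sulfatase of sulfatides, had 3.19, 2.30 and 2.16 FPKM in WT and 8.06, 8.48 and 8.44 FPKM in mutant livers (log2 fold change 1.40, SE 0.11, limma adjusted p = 0.000132). *Arsg* had 9.36, 10.2 and 10.3 FPKM in WT and 4.98, 4.18 and 4.51 FPKM in mutant livers, and its log2 fold change of -0.98 was just short of 2-fold; it was -1.15 and called under median-ratio scaling. *Galns*, another lysosomal sulfatase, had a log2 fold change of 0.76 and was not called.

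Of 14 Golgi sulfotransferase genes tested, 1 was called lower and 0 higher, beside 4.52% and 8.17% of all genes tested. Their median log2 fold change was -0.03, beside 0.14 for all genes. *Gal3st1*, which makes sulfatide, had 3.44, 2.74 and 4.21 FPKM in WT and 0, 0.211 and 0.176 FPKM in mutant livers (log2 fold change of FPKM + 1 -1.98, SE 0.14, limma adjusted p = 8.15e-05). *Ndst1* and *Hs6st1*, which sulfate heparan sulfate, had log2 fold changes of 0.70 and 0.57, and *Tpst1*, a protein tyrosine sulfotransferase, one of -0.95 (none called; *Tpst1* was -1.12 and called under median-ratio scaling).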
